A study of Drosophila melanogaster with 9 samples.

Results

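Glutathione S-transferases (GSTs) couple the tripeptide glutathione to electrophilic compounds such as plant toxins, insecticides and products of lipid peroxidation, and the conjugates are then exported from the cell. Some GSTs also reduce organic peroxides. The Delta and Epsilon classes are insect-specific enzymes that expanded by tandem duplication, whereas the Omega, Sigma, Theta and Zeta classes also occur in vertebrates. In Drosophila several of these genes, with GstD1 as the best known example, serve as readouts of Cnc, the fly homolog of the transcription factor Nrf2, which Keap1 holds in check. The genes described here are the 35 of 17562 genes in the count table whose FlyBase symbol consists of GstD, GstE, GstO, GstS, GstT or GstZ and a number. They comprise 11 Delta, 14 Epsilon, 3 Omega, 1 Sigma, 4 Theta and 2 Zeta genes, and the rule used no measured value.

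Transcripts were profiled in S2R+ cells, an embryonic Drosophila line from the Oregon-R strain, grown in 3 media with 3 replicate cultures per medium. M3 + 2.5% FEx is M3 medium with 2.5% fly extract, and M3 + 10% FEx the same with 10%. The extract was prepared from homogenized and heated adult flies of both sexes. These media contain neither serum nor the supplement of bactopeptone and yeast extract. MB10 is M3 medium with this supplement and 10% fetal bovine serum, and serves as the control. Each medium is represented by 1 line, and the cells in M3 + 2.5% FEx descend from those in M3 + 10% FEx. A change that became fixed in a line during its adaptation, the withdrawal of serum and supplement, and the addition of extract therefore cannot be told apart. The p-values measure the spread between replicate cultures of 1 line. In bulk RNA, fewer cells that express a gene and less RNA per cell cannot be told apart.

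The 9 libraries held 20694827 to 29076620 counts, and GST genes took 0.141 to 0.168% of them. The spread between replicates exceeded counting error (chi-square per degree of freedom 10.4 to 71.1) and was widest among the MB10 libraries. Of 10 hemocyte markers, NimC1 had 0 to 3 counts per library whereas srp and crq were abundant. The markers did not move together. Pxn averaged 162 CPM in M3 + 2.5% FEx, 89.4 CPM in M3 + 10% FEx and 377 CPM in MB10. crq averaged 415, 445 and 426 CPM in the same media. In M3 + 10% FEx against MB10, He was DE higher (2.03) at a low level, with 9 to 90 counts per library. Pxn (-2.08) and Hml (-1.89) were DE lower in this comparison. The markers srp (-0.34), Sr-CI (-0.49) and Col4a1 (-0.704) were called lower, and none besides He was called higher. In M3 + 2.5% FEx against MB10, Pxn was DE lower (-1.22), eater was called lower (-0.68) and no hemocyte marker was called higher. Summed expression of the 10 markers was 870 to 901 CPM in M3 + 2.5% FEx, 762 to 813 CPM in M3 + 10% FEx and 1100.2 to 1201 CPM in MB10. Of 12 markers of adult fly tissues, SP, Lsp2, betaTry and alphaTry had no count in any library. The whole list summed to 47.5 to 53.2 CPM in M3 + 2.5% FEx, 39.5 to 41.0 CPM in M3 + 10% FEx and 32.4 to 40.7 CPM in MB10. Nearly all of this was elav, a neuronal gene that was called higher in M3 + 2.5% FEx (0.43, adjusted p = 0.00341) and not in M3 + 10% FEx (0.07). Without elav the order differed, with at most 26 counts of a gene in a library and sums of 0.535 to 0.830 CPM in M3 + 2.5% FEx, 1.59 to 1.98 CPM in M3 + 10% FEx and 1.08 to 1.67 CPM in MB10. Of these genes only vas passed the expression filter, with 3 to 26 counts per library. It was DE higher in M3 + 10% FEx than in M3 + 2.5% FEx (1.82, adjusted p = 0.0135, edgeR) and was called in neither against MB10. The part of the markers in the results was not tested. CPM are read counts scaled to the library total, here after TMM normalization, and the values of a gene in its 3 libraries are given in the order of the replicates.

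Most GST transcripts came from a few Epsilon, Theta and Omega genes in every medium. At least 1 CPM in all 3 replicates was reached by 23 GST genes in M3 + 2.5% FEx, 24 in M3 + 10% FEx and 23 in MB10, and 23 genes reached it in every medium. The summed expression of all GST genes was 1590 ± 61.5 CPM in M3 + 2.5% FEx, 1446 ± 18.1 CPM in M3 + 10% FEx and 1510 ± 52.7 CPM in MB10 (SD, n = 3 each). To compare genes, CPM were divided by the exon length of the gene in kb. On this scale the Epsilon class made up 62.7% of the GST sum in M3 + 2.5% FEx, 59.7% in M3 + 10% FEx and 58.5% in MB10. GstE6 (FBgn0063494, 2R, 18406011 to 18406761) alone contributed 31.4, 28.9 and 30.8% in the same order. Its level of 570.2, 472 and 521 CPM per kb placed it at rank 123, 149 and 142 of 8663 genes, whereas the median gene stood at 17.7, 17.5 and 17.7 CPM per kb. GstE3, GstO3 and GstT1 followed, and in M3 + 2.5% FEx they reached 225, 167 and 135 CPM per kb.

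**Figure D1:**
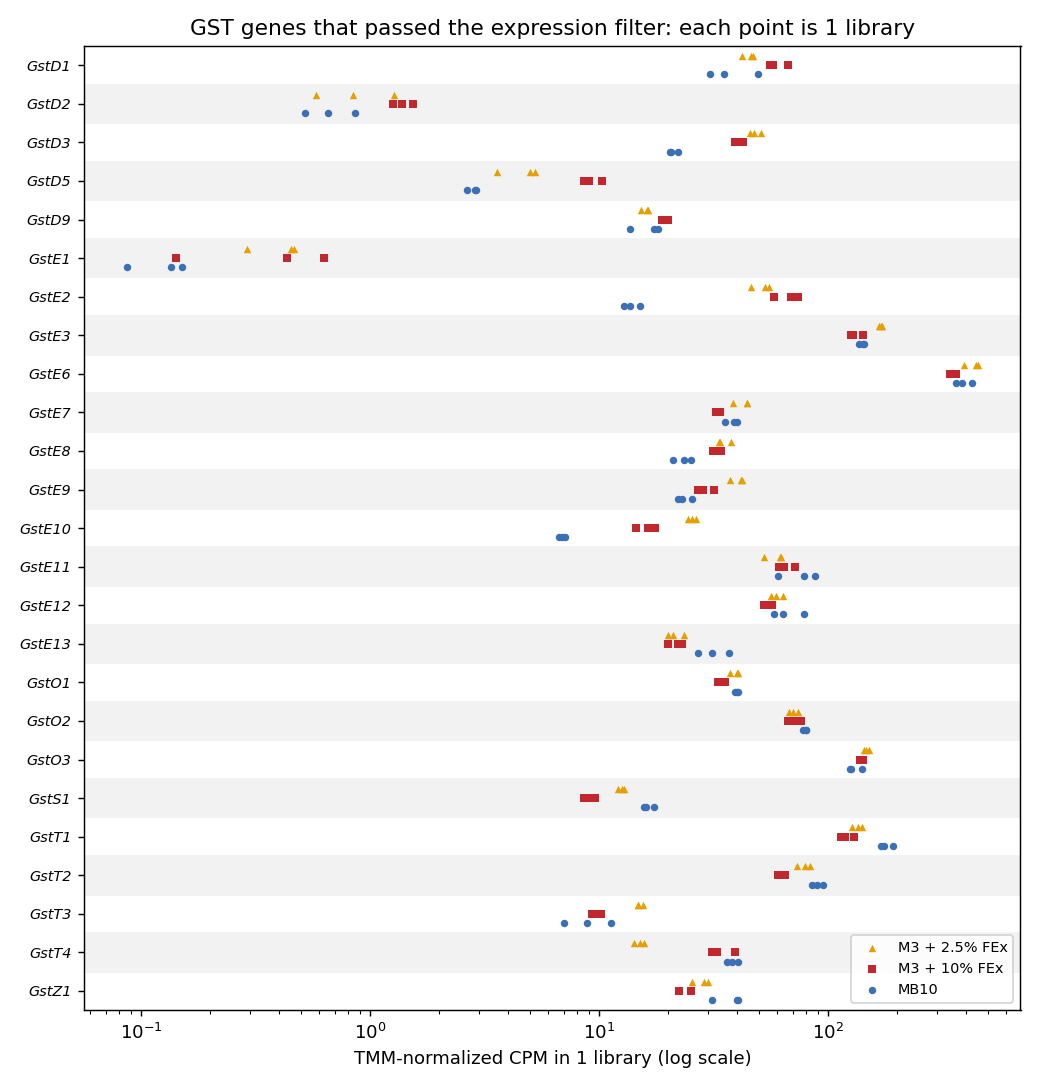
TMM-normalized CPM (log scale) of the 25 GST genes that passed the expression filter, with 1 point per library in M3 + 2.5% FEx, M3 + 10% FEx and MB10. GstE6 lies above 340 CPM in every library, whereas GstE2 is at 46.0 to 55.5 CPM in M3 + 2.5% FEx, 58.3 to 73.9 CPM in M3 + 10% FEx and 12.8 to 15.1 CPM in MB10.

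Detection differed between neighbors within the gene clusters. The 11 Delta genes lie within 20849 bp on 3R, and GstE1 to GstE10 lie within 13198 bp on 2R. In the Delta cluster GstD1, GstD9, GstD3, GstD5 and GstD2 passed the expression filter, whereas GstD4, GstD6, GstD7, GstD8, GstD10 and GstD11 did not. GstE4 and GstE5 did not pass it either, although they lie between GstE3 and GstE6, the Epsilon genes with the most transcript per kb. GstE14, which acts in ecdysone synthesis in the prothoracic gland, and GstZ2 were the remaining genes below the filter. Counts in these 10 genes ran from 0 to 13 per library, with the highest values in GstD4 (4 to 13 counts) and GstE5 (3 to 11 counts). GstD4 had 6, 6 and 7 counts in the M3 + 2.5% FEx libraries, 6, 13 and 8 in the M3 + 10% FEx libraries, and 4 in each MB10 library. For comparison, 3 counts correspond to 0.106 to 0.151 CPM, and differences between media were not tested in these 10 genes. Neighboring GST genes are similar in sequence, and how reads that match several genes were counted is not given in the sources used here.

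**Figure D2:**
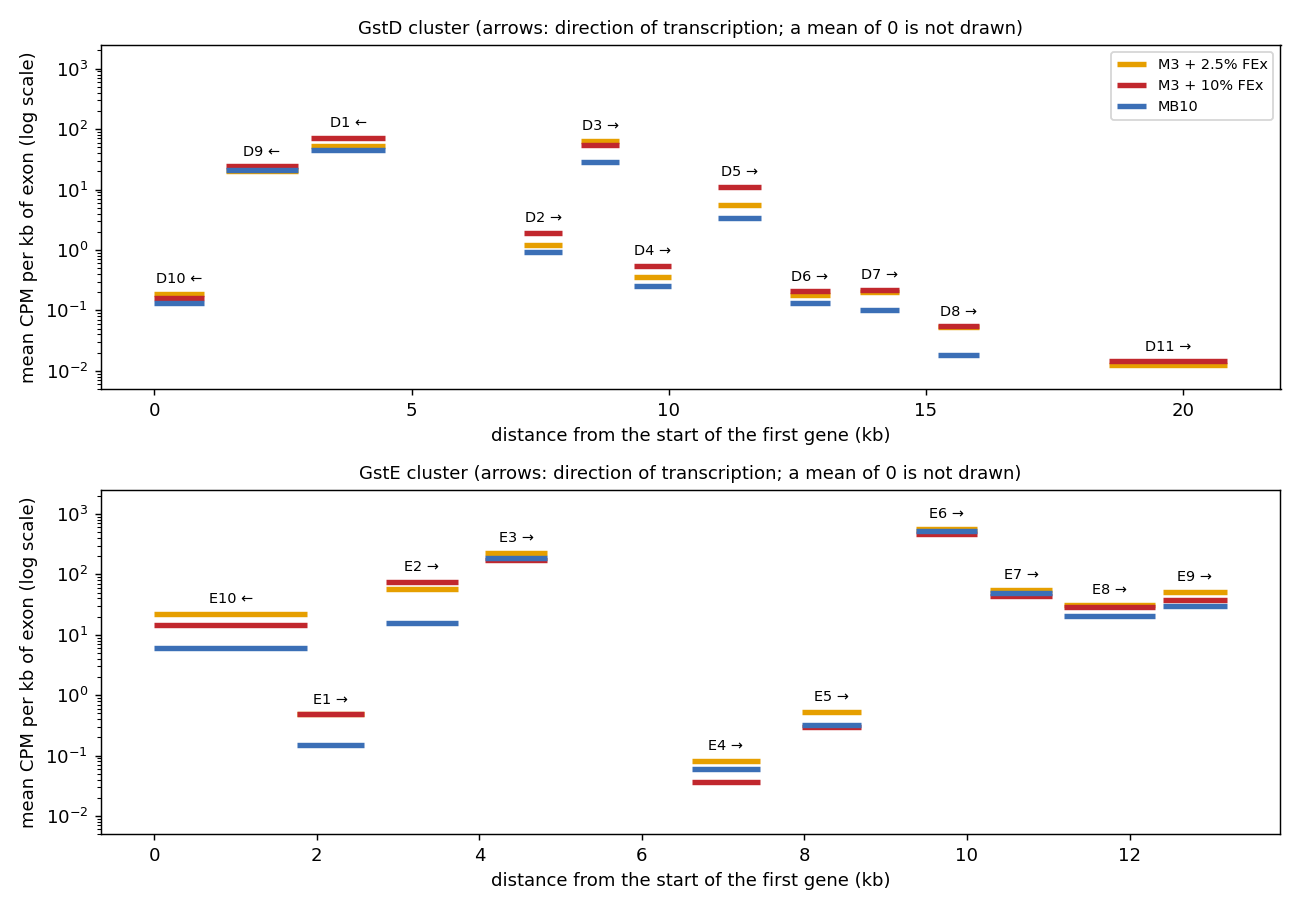
Mean CPM per kb of exon (log scale) against distance from the start of the first gene (kb) in the Delta and Epsilon clusters, with 1 bar per gene and medium and arrows for the direction of transcription. GstE6 reaches 570.2 CPM per kb in M3 + 2.5% FEx, whereas GstE4 and GstE5 on one side of it stay at or below 0.529 CPM per kb in every medium.

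GST genes changed in both directions between the FEx media and MB10. A gene was called at an adjusted p under 0.05 (edgeR quasi-likelihood F test, Benjamini-Hochberg over 8705 genes) and counted as DE if the log2 fold change was also above 1 or below -1. In M3 + 2.5% FEx, 16 of the 25 GST genes tested (64%) were called against MB10, whereas 44.2% of all genes tested were called. Of these, 10 were higher and 6 lower, against 22.0 and 22.2% of all genes. GstD3, GstE1, GstE2 and GstE10 were DE with higher expression (5.59% of all genes) and GstT4 with lower expression (2.93% of all genes), which is 5 of 25 (20%) against 8.52% of all genes. GstE1, which is among the 16 called, passed the filter only through the FEx libraries, and 4 were DE without it. DESeq2, which did not call GstE1, called 15 GST genes here, 9 higher and 6 lower. In M3 + 10% FEx, 17 of 25 (68%) were called against MB10, beside 53.1% of all genes, with 9 higher and 8 lower (25.5 and 27.6% of all genes). GstD2, GstD5, GstE1, GstE2 and GstE10 were DE with higher expression, again 5 of 25 (20%), beside 7.34% of all genes. GstE1 is among the 17 called as well. Without it 4 were DE with higher expression, and DESeq2, which did not call GstE1, also gave 4. DESeq2 called 14 GST genes in M3 + 10% FEx, 8 higher and 6 lower. The shares of all genes come from edgeR throughout, and those of DESeq2 are not given here. With edgeR or DESeq2 0 were DE with lower expression, which 3.63% of all genes were, and in both directions 11.0% of all genes were DE. The lowest log2 fold change was -0.84 (GstS1). Over the 25 genes the log2 fold changes had their median at 0.15 in M3 + 2.5% FEx and at -0.09 in M3 + 10% FEx, compared with -0.04 over all genes in both. Both comparisons share the MB10 libraries. Without M3 + 10% FEx replicate 3, 3 rather than 5 GST genes were DE in M3 + 10% FEx, as GstE1 (adjusted p = 0.0969) and GstD2 (log2 fold change 0.89) then missed a threshold. Without MB10 replicate 1, 5 rather than 8 were called lower.

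Between the FEx media, 13 of 25 GST genes (52%) were called, whereas 21.8% of all genes were. In M3 + 10% FEx relative to M3 + 2.5% FEx, 3 GST genes were higher and 10 lower (10.5 and 11.3% of all genes), and the median log2 fold change was -0.11, compared with -0.001 over all genes. GstD5 and GstT4 were DE, both with higher expression in M3 + 10% FEx (8% of 25), beside 3.47% of all genes (2.42% DE higher and 1.05% DE lower). Without M3 + 2.5% FEx replicate 1 or M3 + 10% FEx replicate 2 only 1 was DE. Without MB10 replicate 3, which enters this comparison only through the shared estimate of the spread, 5 rather than 3 GST genes were called higher, while 2686 rather than 1896 of all genes were called.

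**Figure D3:**
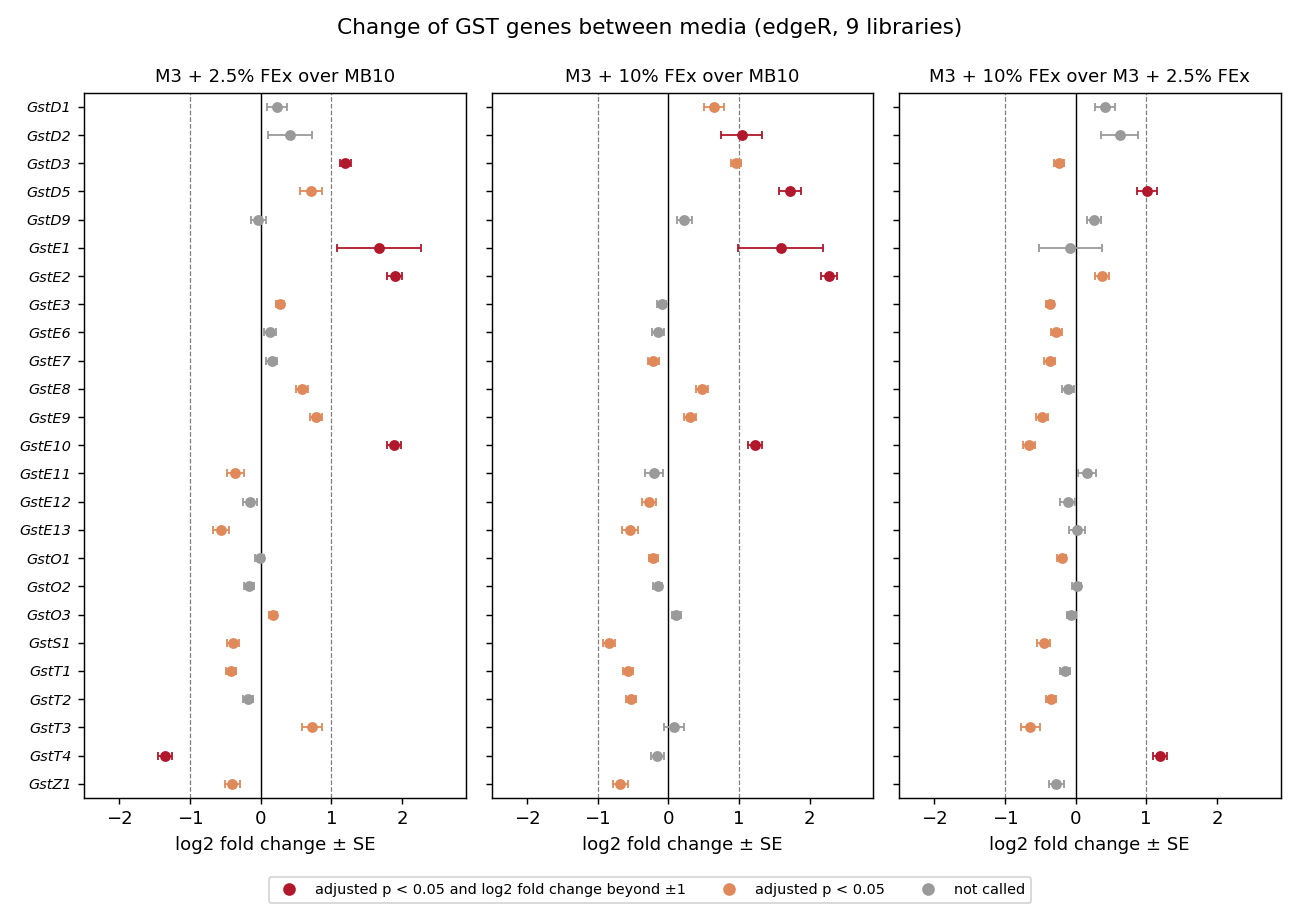
Log2 fold change with its SE for the 25 GST genes tested, in M3 + 2.5% FEx over MB10, M3 + 10% FEx over MB10, and M3 + 10% FEx over M3 + 2.5% FEx. Points beyond the dashed lines at 1 and -1 include GstE2 (1.89 and 2.27 over MB10) and GstT4 (-1.35 in M3 + 2.5% FEx over MB10, and 1.20 between the FEx media).

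Delta genes that moved were higher in FEx media than in MB10. Of the 5 genes tested, 2 were called higher in M3 + 2.5% FEx (22.0% of all genes) and 4 were in M3 + 10% FEx (25.5% of all genes). The lowest log2 fold change of the class was -0.04 (GstD9 in M3 + 2.5% FEx). Summed Delta expression was 115 ± 2.97 CPM in M3 + 2.5% FEx, 132 ± 5.61 CPM in M3 + 10% FEx and 79.7 ± 6.84 CPM in MB10.

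GstD3 (FBgn0010039, 3R, 12373068 to 12373813), a single-exon gene, had 45.5, 47.5 and 51.2 CPM in the M3 + 2.5% FEx libraries, 41.1, 42.3 and 39.2 CPM in the M3 + 10% FEx libraries, and 20.5, 22.0 and 20.3 CPM in MB10. All 6 FEx libraries lay above all MB10 libraries, and the FEx media did not overlap either. Its log2 fold change was 1.20 ± 0.07 (SE, adjusted p = 9.63e-08) in M3 + 2.5% FEx and 0.96 ± 0.07 (adjusted p = 5.01e-07) in M3 + 10% FEx against MB10. Between the FEx media it was -0.23 (adjusted p = 0.0328), a call that was lost with 6 of the 9 libraries left out in turn (adjusted p up to 0.151).

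GstD5 (FBgn0010041, 3R, 12375733 to 12376572) was the Delta gene with the largest increase at the higher extract concentration. It had 3.59, 5.22 and 4.98 CPM in the M3 + 2.5% FEx libraries, 9.0, 10.3 and 8.58 CPM in the M3 + 10% FEx libraries, and 2.87, 2.89 and 2.66 CPM in MB10. The 3 media did not overlap. The log2 fold change against MB10 was 0.71 ± 0.16 (adjusted p = 0.00385) in M3 + 2.5% FEx and 1.72 ± 0.15 (adjusted p = 1.66e-06) in M3 + 10% FEx, and that between the FEx media was 1.01 ± 0.14 (adjusted p = 3.18e-04). The last value lies at the threshold for DE and ran from 0.87 to 1.11 when each library was left out.

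GstD1 (FBgn0001149, 3R, 12367817 to 12369268), which detoxifies DDT and 4-hydroxynonenal, had the most transcript per kb of the Delta genes in M3 + 10% FEx (71.4 CPM per kb) and in MB10 (45.5 CPM per kb). It had 46.2, 47.0 and 42.1 CPM in the M3 + 2.5% FEx libraries, 67.0, 55.9 and 57.8 CPM in the M3 + 10% FEx libraries, and 35.2, 30.6 and 49.2 CPM in MB10. The libraries of M3 + 10% FEx were the highest, and those of M3 + 2.5% FEx overlapped with MB10, in which replicate 3 stood above the others. GstD1 was called in M3 + 10% FEx (0.65 ± 0.14, adjusted p = 0.00226) but not in M3 + 2.5% FEx (0.23 ± 0.14, adjusted p = 0.207), and the direct comparison of the FEx media missed the threshold (0.42, adjusted p = 0.0529). It passed with DESeq2 (adjusted p = 0.0269), with RLE normalization (0.0414), without a filter (0.00698), with only the FEx media in the model (0.000715) and without MB10 replicate 2 (0.0119). Without MB10 replicate 3 the change in M3 + 2.5% FEx was 0.45 (adjusted p = 0.00131) and the direct comparison also passed (adjusted p = 0.00119).

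GstD2 (FBgn0010038, 3R, 12371971 to 12372704) was expressed at a low level, with 20, 31 and 14 counts in M3 + 2.5% FEx, 39, 28 and 32 counts in M3 + 10% FEx, and 13, 12 and 19 counts in MB10. This corresponds to 0.900 ± 0.350, 1.40 ± 0.141 and 0.676 ± 0.170 CPM in the same order, and the libraries of M3 + 10% FEx lay above those of MB10. Its log2 fold change was 1.04 ± 0.29 (adjusted p = 0.00933) in M3 + 10% FEx and 0.41 ± 0.31 (adjusted p = 0.303) in M3 + 2.5% FEx. GstD9 passed in none of the 3 comparisons, with log2 fold changes between -0.04 and 0.26, although it was called higher in M3 + 10% FEx than in MB10 without MB10 replicate 1 (adjusted p = 0.0464) or 2 (adjusted p = 0.0447).

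**Figure D4:**
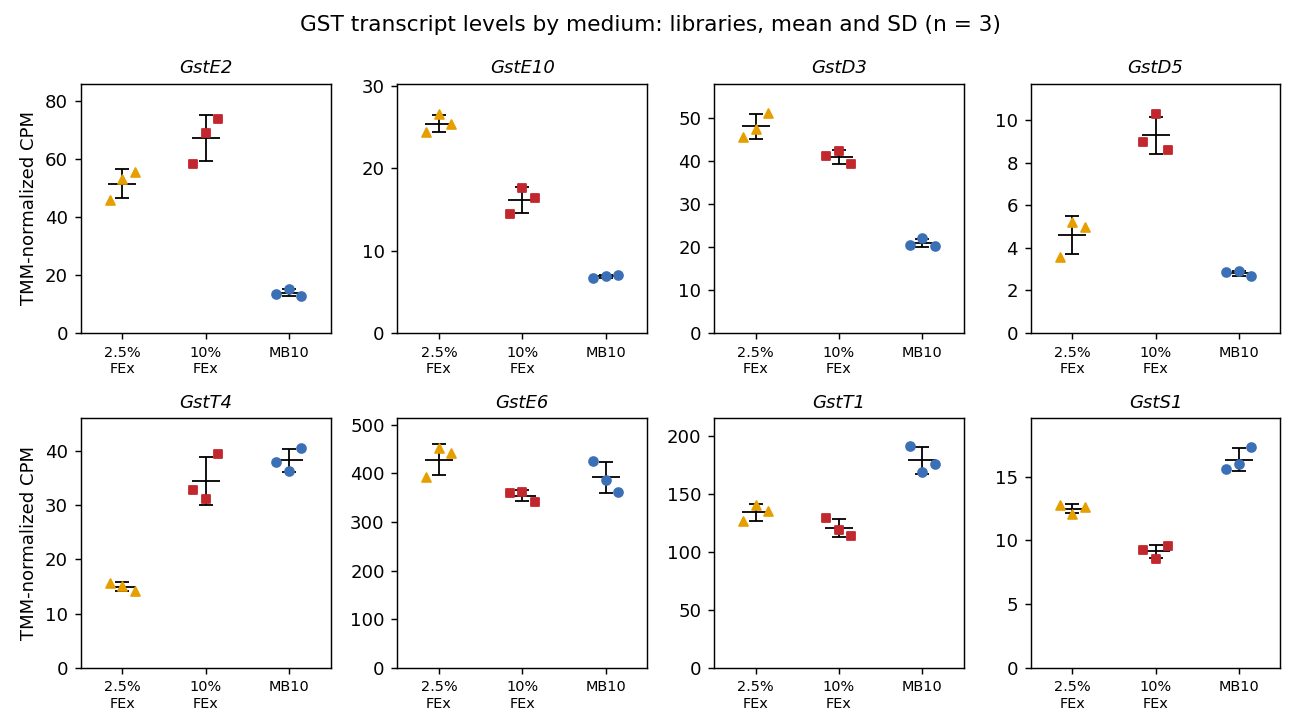
TMM-normalized CPM of 8 GST genes by medium, with 1 point per library, the mean as a long line and the SD as bars (n = 3). GstE2, GstE10, GstD3 and GstD5 are higher in both FEx media than in MB10, GstT1 and GstS1 are lower in both, and GstT4 is at 14.1 to 15.6 CPM in M3 + 2.5% FEx only.

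Among the Epsilon genes, GstE2 and GstE10 stood out with DE increases over MB10 at either extract concentration. They lie at one end of the cluster, with GstE1 between them. Of the 11 Epsilon genes tested, 6 were called higher and 2 lower in M3 + 2.5% FEx, and 5 higher and 3 lower in M3 + 10% FEx. Of all genes, 22.0% were called higher and 22.2% lower in M3 + 2.5% FEx, and 25.5 and 27.6% in M3 + 10% FEx. The Epsilon genes called higher include GstE1, which passed the filter only through the FEx libraries. DESeq2, which did not call GstE1, called 5 higher and 2 lower in M3 + 2.5% FEx. In M3 + 10% FEx it called 4 higher and 1 lower. Summed Epsilon expression was 934 ± 42.0 CPM in M3 + 2.5% FEx, 808 ± 13.5 CPM in M3 + 10% FEx and 812 ± 33.8 CPM in MB10, a sum that GstE6 dominated.

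GstE2 (FBgn0063498, 2R, 18399486 to 18400375) had the largest fold change of the GST genes called in M3 + 10% FEx. It had 46.0, 53.0 and 55.5 CPM in the M3 + 2.5% FEx libraries, 58.3, 69.2 and 73.9 CPM in the M3 + 10% FEx libraries, and 13.6, 15.1 and 12.8 CPM in MB10. The media did not overlap. The log2 fold change was 1.89 ± 0.11 (3.72-fold, adjusted p = 6.28e-08) in M3 + 2.5% FEx and 2.27 ± 0.11 (4.84-fold, adjusted p = 8.11e-09) in M3 + 10% FEx. On the length-scaled sum, GstE2 contributed 3.18% of GST transcripts in M3 + 2.5% FEx, 4.62% in M3 + 10% FEx and 0.924% in MB10. Between the FEx media it differed by 0.38 (adjusted p = 0.0184), and this call was lost with 4 of the 9 libraries left out in turn (adjusted p up to 0.0829).

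GstE10 (FBgn0063499, 2R, 18396638 to 18398519), transcribed away from the rest of the cluster, had 24.4, 26.5 and 25.3 CPM in the M3 + 2.5% FEx libraries, 14.5, 17.6 and 16.4 CPM in the M3 + 10% FEx libraries, and 6.69, 6.87 and 7.08 CPM in MB10. Here the lower extract concentration had the higher level, and the media again did not overlap. The log2 fold change was 1.88 ± 0.10 (adjusted p = 1.77e-08) in M3 + 2.5% FEx and 1.23 ± 0.10 (adjusted p = 7.53e-07) in M3 + 10% FEx against MB10, and -0.66 ± 0.09 (adjusted p = 2.81e-04) between the FEx media.

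GstE1 (FBgn0034335, 2R, 18398393 to 18399223) lies between GstE10 and GstE2 and was near the detection limit. It had 11, 11 and 7 counts in M3 + 2.5% FEx, 4, 14 and 9 counts in M3 + 10% FEx, and 3, 2 and 3 counts in MB10, so that it passed the filter only through the FEx libraries. The ratio of the summed counts per library total was 3.28 (95% exact binomial interval 1.46 to 8.30, counting error only) in M3 + 2.5% FEx and 3.09 (1.37 to 7.88) in M3 + 10% FEx. The adjusted p of 0.0382 and 0.0418 rose above the threshold with DESeq2 (0.0637 and 0.0624). It also did so with 6 of the 9 libraries left out in turn in M3 + 2.5% FEx (up to 0.0988) and with 7 of 9 in M3 + 10% FEx (up to 0.181). GstE1 and GstE10 overlap by 127 bp on opposite strands, and the strand setting of the counting is not given in the sources used here.

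The rest of the Epsilon cluster changed by less than 1 on the log2 scale. GstE6 had 392, 451 and 441 CPM in the M3 + 2.5% FEx libraries, 360.0, 362 and 341 CPM in the M3 + 10% FEx libraries, and 425, 386 and 362 CPM in MB10. Against MB10 its log2 fold change was 0.13 (adjusted p = 0.206) in M3 + 2.5% FEx and -0.14 (adjusted p = 0.153) in M3 + 10% FEx. In the direct comparison it was lower in M3 + 10% FEx (-0.27, adjusted p = 0.0295), although 5 of the 9 libraries left out in turn ended this call (adjusted p up to 0.143). GstE8 was higher in M3 + 2.5% FEx (0.58) and M3 + 10% FEx (0.48) than in MB10, and GstE9 likewise (0.78 and 0.31). GstE9 overlaps imd on the opposite strand, and without M3 + 10% FEx replicate 3 its change in that medium was 0.24 (adjusted p = 0.0542). GstE3 was called higher in M3 + 2.5% FEx (0.27, adjusted p = 0.00385) and stood at -0.09 in M3 + 10% FEx, and the difference between the FEx media passed as well (-0.36, adjusted p = 0.00146). GstE7 was lower in M3 + 10% FEx than in MB10 (-0.21, adjusted p = 0.0371, lost with 7 of 9 libraries left out, up to 0.17) and than in M3 + 2.5% FEx (-0.37, adjusted p = 0.00555).

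Outside the cluster 3 Epsilon genes were tested. GstE13 was lower in both FEx media than in MB10 (-0.56, adjusted p = 0.00188, in M3 + 2.5% FEx, and -0.54, adjusted p = 0.00153, in M3 + 10% FEx), and no library left out ended these calls. GstE11 was lower in M3 + 2.5% FEx (-0.36, adjusted p = 0.0329) and GstE12 in M3 + 10% FEx (-0.27, adjusted p = 0.041), but these calls were lost with 4 and 6 of the 9 libraries left out in turn (adjusted p up to 0.133 and 0.142).

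Omega genes changed little. These enzymes resemble glutaredoxins in activity, and GstO1, GstO2 and GstO3 lie within 5982 bp on 3L. The sepia gene (se), which encodes another Omega enzyme that acts in eye pigment synthesis, lies among them and had at most 7 counts per library. GstO3 (FBgn0035904, 3L, 8518885 to 8520295) was the most abundant, with 147, 150.3 and 143 CPM in the M3 + 2.5% FEx libraries, 138, 142 and 143 CPM in the M3 + 10% FEx libraries, and 126, 124 and 140.1 CPM in MB10. The M3 + 2.5% FEx libraries lay above those of MB10 and those of M3 + 10% FEx overlapped with them. Its log2 fold change was 0.17 ± 0.06 (adjusted p = 0.0382) in M3 + 2.5% FEx, lost with 5 of the 9 libraries left out in turn (adjusted p up to 0.103), and 0.11 (adjusted p = 0.14) in M3 + 10% FEx. GstO1 was lower in M3 + 10% FEx than in MB10 (-0.21, adjusted p = 0.0153) and than in M3 + 2.5% FEx (-0.20, adjusted p = 0.0452). Leaving out M3 + 10% FEx replicate 3 or MB10 replicate 1 ended the first of these calls (adjusted p = 0.0598 and 0.0709), and 7 of the 9 libraries the second (up to 0.162). In M3 + 2.5% FEx it stood at -0.01 relative to MB10, and at 0.0047 with RLE normalization and 0.006 with DESeq2. GstO2 did not pass in any comparison (-0.17, -0.15 and 0.02).

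GstS1 (FBgn0010226, 2R, 17093246 to 17099501), the single Sigma gene, is known as a muscle-enriched enzyme that conjugates 4-hydroxynonenal. It had 12.8, 12.1 and 12.6 CPM in the M3 + 2.5% FEx libraries, 9.25, 8.56 and 9.59 CPM in the M3 + 10% FEx libraries, and 15.6, 16.0 and 17.4 CPM in MB10. The media did not overlap, and the level was lowest at the higher extract concentration. GstS1 changed by -0.39 ± 0.08 (adjusted p = 0.00317) in M3 + 2.5% FEx, -0.84 ± 0.09 (adjusted p = 7.62e-06) in M3 + 10% FEx and -0.45 ± 0.09 (adjusted p = 0.00342) between the FEx media.

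Theta genes were divided. Summed Theta expression was 243 ± 11.0 CPM in M3 + 2.5% FEx, 227 ± 8.80 CPM in M3 + 10% FEx and 316 ± 14.3 CPM in MB10, and most of it came from GstT1 and GstT2, which are neighbors on 2R. GstT1 (FBgn0050000, 2R, 9605988 to 9607184) had 127, 141 and 135 CPM in the M3 + 2.5% FEx libraries, 129.8, 119 and 114 CPM in the M3 + 10% FEx libraries, and 192, 169.6 and 176 CPM in MB10. Every FEx library lay below every MB10 library. Its log2 fold change was -0.42 ± 0.07 (adjusted p = 6.90e-04) in M3 + 2.5% FEx and -0.57 ± 0.07 (adjusted p = 4.29e-05) in M3 + 10% FEx. GstT2 was lower in M3 + 10% FEx (-0.53, adjusted p = 6.06e-05) and stood at -0.18 in M3 + 2.5% FEx (adjusted p = 0.0517, and 0.0198 without MB10 replicate 3). The direct comparison of the FEx media also passed (-0.35, adjusted p = 0.00441). GstT2 overlaps CG12926 on the opposite strand, with the same limit as for GstE1 and GstE10.

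GstT4 (FBgn0030484, X, 13404749 to 13409323) was the GST gene with lower expression in M3 + 2.5% FEx by the DE criterion. It had 15.6, 15.1 and 14.1 CPM in the M3 + 2.5% FEx libraries, 32.8, 31.0 and 39.4 CPM in the M3 + 10% FEx libraries, and 38.0, 36.3 and 40.5 CPM in MB10. The M3 + 2.5% FEx libraries lay below all others, and those of M3 + 10% FEx overlapped with MB10. The log2 fold change was -1.35 ± 0.10 (0.391-fold, adjusted p = 4.19e-07) in M3 + 2.5% FEx and -0.15 ± 0.09 (adjusted p = 0.184) in M3 + 10% FEx, and 1.20 ± 0.10 (2.30-fold, adjusted p = 6.07e-06) between the FEx media. Without M3 + 10% FEx replicate 3 the change in M3 + 10% FEx was -0.26 (adjusted p = 0.0289). GstT3, also on X, had the opposite pattern. Its level of 14.7 to 15.5 CPM in M3 + 2.5% FEx stood above 9.30 to 10.2 CPM in M3 + 10% FEx and 7.04 to 11.3 CPM in MB10, with log2 fold changes of 0.72 (adjusted p = 0.00122) and 0.09 (adjusted p = 0.637) against MB10 and -0.64 (adjusted p = 0.00552) between the FEx media. The value of 0.09 turned to -0.05 without MB10 replicate 1.

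GstZ1 (FBgn0037696, 3R, 9455517 to 9456546) belongs to the Zeta class, whose enzymes isomerize maleylacetoacetate in tyrosine breakdown. It had 25.5, 28.7 and 30.0 CPM in the M3 + 2.5% FEx libraries, 22.3, 25.3 and 22.2 CPM in the M3 + 10% FEx libraries, and 40.5, 40.0 and 31.3 CPM in MB10. All FEx libraries lay below the MB10 libraries, the lowest of which was replicate 3. Its log2 fold change was -0.41 ± 0.11 (adjusted p = 0.00939) in M3 + 2.5% FEx and -0.68 ± 0.11 (adjusted p = 2.54e-04) in M3 + 10% FEx, and leaving out M3 + 2.5% FEx replicate 1 or MB10 replicate 1 ended the call in M3 + 2.5% FEx (adjusted p = 0.0562 and 0.0564).

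The genes that supply glutathione and act beside GSTs were taken from 8 lists with 61 genes, of which 49 passed the filter. Against MB10, 21 of the 49 (42.9%) were called in M3 + 2.5% FEx, 8 higher and 13 lower, and 29 (59.2%) in M3 + 10% FEx, 13 higher and 16 lower. These shares are near those of all genes (44.2 and 53.1%). The genes called higher in M3 + 10% FEx include Ggt-1 and Cyp6a8, which passed the filter only through FEx libraries. Between the FEx media 10 of 49 (20.4%) were called, beside 21.8% of all genes, and without MB10 replicate 3 the list count was 17, in the fit that called 2686 of all genes.

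Of the regulators, Keap1 was higher in both FEx media than in MB10 (0.64 ± 0.08, adjusted p = 7.51e-05, in M3 + 2.5% FEx, and 0.60 ± 0.08, adjusted p = 7.42e-05, in M3 + 10% FEx). cnc was higher by 0.23 in M3 + 2.5% FEx (adjusted p = 0.0332) and by 0.33 in M3 + 10% FEx (adjusted p = 0.00462), but 5 of the 9 libraries left out in turn ended the call in M3 + 2.5% FEx (adjusted p up to 0.0878). Of the 7 genes of glutathione synthesis and turnover, 4 were called higher in M3 + 10% FEx (3 with DESeq2), where 25.5% of all genes were, and 0 in M3 + 2.5% FEx by edgeR, where 2 had an unadjusted p under 0.05 and DESeq2 called 1. The 4 genes were Gclc, Gss1, Gss2 and Ggt-1. Gss1 and Gss2 are near-identical neighbors, and reads of this pair may have been divided between them. Gclc, the catalytic subunit of glutamate-cysteine ligase, had 69.8, 64.8 and 71.2 CPM in the M3 + 2.5% FEx libraries, 85.6, 83.1 and 78.7 CPM in the M3 + 10% FEx libraries, and 58.4, 64.3 and 60.2 CPM in MB10. It was called in M3 + 10% FEx (0.44 ± 0.07, adjusted p = 1.72e-04) and not in M3 + 2.5% FEx (0.17, adjusted p = 0.0564), where all libraries lay above those of MB10. Gclc passed in M3 + 2.5% FEx with DESeq2 (adjusted p = 0.044) and with RLE normalization (0.0429). It also passed with a filter of 10 counts in every library (0.0481) and without MB10 replicate 2 (0.014). Its modifier Gclm was called in neither FEx medium (-0.05 in M3 + 2.5% FEx, 0.09 in M3 + 10% FEx). Ggt-1, a gamma-glutamyl transferase at low level that passed the filter only through the FEx libraries, was DE in M3 + 10% FEx (1.43 ± 0.49, adjusted p = 0.0288), but 4 of the 9 libraries left out in turn ended the call (adjusted p up to 0.165).

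Peroxiredoxin genes were mostly lower in FEx media. Of 9 thioredoxin and peroxiredoxin genes tested, 6 were called lower and 1 higher in M3 + 2.5% FEx, and likewise 6 and 1 in M3 + 10% FEx, whereas 22.2 and 27.6% of all genes were called lower. Those called lower were all peroxiredoxin genes, and the thioredoxin gene Trx2 was called in neither FEx medium (0.01 in M3 + 2.5% FEx, -0.14 in M3 + 10% FEx). Of 5 superoxide dismutase and catalase genes tested, 2 were called lower in M3 + 2.5% FEx and 3 in M3 + 10% FEx. The peroxiredoxin gene Prx6b had 14.4, 13.6 and 13.3 CPM in the M3 + 2.5% FEx libraries, 10.7, 10.6 and 11.1 CPM in the M3 + 10% FEx libraries, and 56.7, 52.9 and 63.2 CPM in MB10. Its log2 fold change was -2.06 ± 0.08 (adjusted p = 2.25e-09) in M3 + 2.5% FEx and -2.42 ± 0.09 (adjusted p = 5.49e-10) in M3 + 10% FEx. Its near-identical neighbor Prx6c, also among the 6 called lower, changed by -1.93 and -2.25, and reads of this pair may have been divided between them. The gene called higher was Trxr1, the thioredoxin reductase, whose system also reduces oxidized glutathione in flies (0.38, adjusted p = 0.0181, in M3 + 2.5% FEx and 0.39, adjusted p = 0.0114, in M3 + 10% FEx). In M3 + 2.5% FEx 2 of the 9 libraries left out in turn ended this call (adjusted p up to 0.059). Cat, the catalase gene, was lower in M3 + 2.5% FEx (-0.63) and M3 + 10% FEx (-0.32), and Grx1, a glutaredoxin, likewise (-0.93 and -1.01). Sod1 stood at -0.14 in M3 + 2.5% FEx and at -0.26 in M3 + 10% FEx, where its adjusted p of 0.0494 rose above 0.05 with 8 of the 9 libraries left out in turn (up to 0.164).

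The lists of oxidation and export genes held changes in both directions. Of 9 phase I genes tested, 2 were called higher and 2 lower in M3 + 2.5% FEx, and 3 higher and 4 lower in M3 + 10% FEx. Of 4 exporter genes tested, 2 were called higher in either FEx medium and 1, Mdr50, lower in M3 + 2.5% FEx (-0.60, adjusted p = 0.00857). Beside these, 22.0% of all genes were called higher and 22.2% lower in M3 + 2.5% FEx, and 25.5 and 27.6% in M3 + 10% FEx. Among the phase I genes in M3 + 10% FEx, the 3 higher include Cyp6a8, and the 4 lower include the near-identical neighbors Cyp12d1-p and Cyp12d1-d. Cyp6a9, a cytochrome P450 gene of an insecticide-associated family, had 3.72, 3.87 and 3.86 CPM in the M3 + 2.5% FEx libraries, 5.14, 5.59 and 5.45 CPM in the M3 + 10% FEx libraries, and 1.21, 0.648 and 0.406 CPM in MB10. It changed by 2.36 ± 0.24 in M3 + 2.5% FEx (adjusted p = 9.89e-06), and by 2.86 ± 0.23 in M3 + 10% FEx (adjusted p = 8.13e-07). Mdr49, an ABC transporter gene, changed by 2.15 ± 0.25 and 2.85 ± 0.23 (adjusted p = 3.46e-05 and 1.07e-06), and Mrp4, which belongs to the family that exports glutathione conjugates, by 1.02 ± 0.09 and 1.00 ± 0.09 (adjusted p = 2.18e-06 and 1.84e-06). Jheh3, an epoxide hydrolase gene, had 41, 36 and 63 counts in the M3 + 2.5% FEx libraries, 36, 27 and 22 in the M3 + 10% FEx libraries, and 6, 7 and 14 in the MB10 libraries, with changes of 2.22 and 1.51. The related Jheh1 (-0.81 and -0.99) and Jheh2 (-0.26 and -0.66) were called lower in both FEx media. Jheh3 passed the filter through the FEx libraries, and Cyp6a8, another cytochrome P450 gene, only through those of M3 + 10% FEx. Cyp6a8 had 41 counts over the M3 + 10% FEx libraries and 6 over the MB10 libraries, a ratio of 6.26 per library total (95% exact binomial interval 2.64 to 18.1, counting error only). Of 4 NADPH supply genes tested, only Men was called against MB10. Zw, Pgd and Idh were called in neither FEx medium (0.17, 0.16 and -0.14 in M3 + 10% FEx). Men, the NADPH-producing malic enzyme, had 274, 262 and 246 CPM in the M3 + 2.5% FEx libraries, 489.6, 462 and 469.5 CPM in the M3 + 10% FEx libraries, and 209.9, 209.9 and 240.0 CPM in MB10. It was DE in M3 + 10% FEx (1.11 ± 0.07, adjusted p = 1.60e-07) and differed between the FEx media (0.86, adjusted p = 9.45e-06). In M3 + 2.5% FEx it changed by 0.25 (adjusted p = 0.0176), and 2 of the 9 libraries left out in turn ended this call (adjusted p up to 0.0604).

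**Figure D5:**
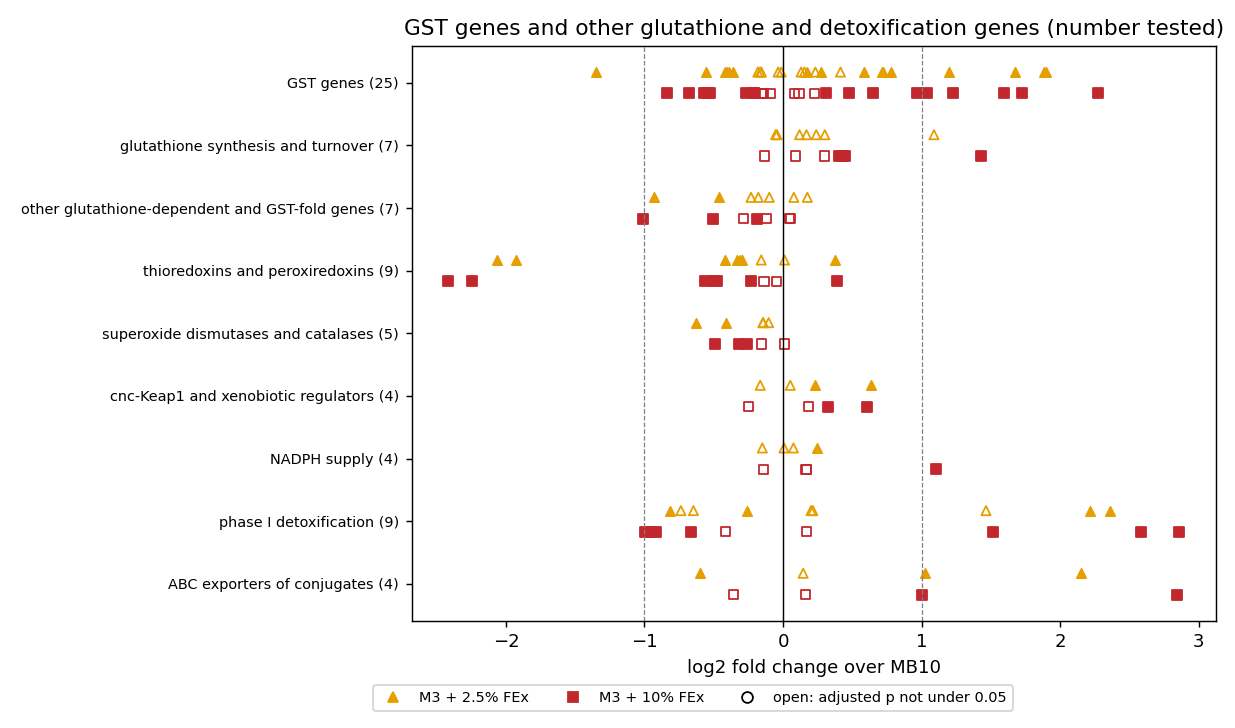
Log2 fold change over MB10 of each tested gene in M3 + 2.5% FEx (triangles) and in M3 + 10% FEx (squares), for the 25 GST genes and 8 lists of glutathione and detoxification genes, with open symbols for an adjusted p that is not under 0.05. The lowest points are Prx6b and Prx6c (-2.42 and -2.25 in M3 + 10% FEx), and the highest are Cyp6a9 (2.86) and Mdr49 (2.85).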

How the data were processed

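Total RNA of 9 S2R+ cultures (3 per medium, grouped by the sample labels) was sequenced after TruSeq stranded mRNA preparation. The authors trimmed reads with Trimmomatic 0.36, aligned them with HISAT2 2.1.0 to Drosophila release 6, assigned them to genes with featureCounts 1.6.4 and deposited the read counts without normalization. Their settings for strand and for reads with several matches are not given in the sources used here.

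Counts were analyzed in R 4.3.3 with edgeR 4.0.16 (TMM normalization, filterByExpr with its minimum count of 10, quasi-likelihood F test, two-sided, 1 model of all 9 libraries). Of 17562 genes 8705 were tested, and p-values were adjusted over all of them within each comparison. Fold changes are on the log2 scale, and the SE was derived from the fold change and F (log2 fold change over the root of F). The procedure was first tested on simulated counts. DESeq2 1.42.0, RLE normalization, other filters, a fit of only the 2 media compared, a replicate block and the omission of each library were tried as alternatives. Symbols were matched to 17477 gene identifiers. Positions and exon lengths (8663 of the genes tested) come from BDGP6.54, the same release 6 assembly with a later annotation.

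The GST genes and the gene lists were chosen with earlier results of these data known. Values in every library are given for GST genes that were DE in at least 1 comparison and for the most abundant gene of each class. From the glutathione and detoxification lists, Gclc, Gclm, cnc, Keap1, Trxr1, Sod1 and Cat were named whatever their values, together with the 10 others that had the largest change among those DE against MB10. The labels state no link between same-numbered replicates of different media beyond the number.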

Additional observations from a re-analysis of the deposited data

Results flagged for a closer look

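For 13 GST genes the change relative to MB10 differed between the FEx media, as the direct comparison of M3 + 10% FEx with M3 + 2.5% FEx passed an adjusted p under 0.05 over all genes (edgeR quasi-likelihood F test, 3 libraries per medium). These are 13 of 25 genes tested, and 21.8% of all genes passed (10.5% higher and 11.3% lower in M3 + 10% FEx). The log2 fold change between the FEx media was positive for GstT4 (1.20), GstD5 (1.01) and GstE2 (0.38). It was negative for GstE10 (-0.66), GstT3 (-0.64), GstE9 (-0.47), GstS1 (-0.45), GstE7 (-0.37), GstE3 (-0.36), GstT2 (-0.35), GstE6 (-0.27), GstD3 (-0.23) and GstO1 (-0.20). With each library left out in turn, 9 to 16 GST genes were called in this comparison, while 1094 to 2686 of all genes were called in the same runs. The calls of GstO1, GstD3, GstE6 and GstE2 were lost with 7, 6, 5 and 4 of the 9 libraries left out. Since the cells in M3 + 2.5% FEx descend from those in M3 + 10% FEx and each medium is 1 line, extract concentration and line cannot be told apart.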

How the results depend on the processing

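The directions and calls of GstD3, GstD5, GstE2, GstE10, GstS1 and GstT1 against MB10 held under all alternatives, as did those of GstT4 in M3 + 2.5% FEx. With only the 2 media compared in the model, 5 GST genes were called lower in M3 + 10% FEx than in MB10, 5 were called higher in M3 + 10% FEx than in M3 + 2.5% FEx, and 19 genes of the glutathione and detoxification lists were called between the FEx media, as were 2904 of all genes. Without TMM normalization the summed Delta and Omega expression in M3 + 2.5% FEx was 118 and 264 CPM, and the sum of all GST genes in M3 + 10% FEx was 1425 CPM. With each library left out in turn, 3 to 5 GST genes were DE in M3 + 10% FEx against MB10, all with higher expression, and 1 to 2 were DE between the FEx media, again all with higher expression. In the same runs 5 to 8 GST genes were called lower in M3 + 10% FEx than in MB10, 2 to 5 were called higher in M3 + 10% FEx than in M3 + 2.5% FEx, and 7 to 17 list genes were called between the FEx media. Of all genes, 3985 to 4997 were called and 952 to 1011 were DE in M3 + 10% FEx against MB10 in these runs. Between the FEx media, 1094 to 2686 of all genes were called and 262 to 327 were DE. The labels do not say whether same-numbered libraries were handled together. The deviations of same-numbered libraries correlated at -0.343, -0.267 and -0.578 for M3 + 2.5% FEx and MB10, at 0.0951, 0.134 and -0.128 for M3 + 10% FEx and MB10, and at 0.125, -0.0398 and 0.0759 for the FEx media. With so few libraries per medium, these values cannot decide whether the samples were paired. With the replicate number as a block, 13, 14 and 10 GST genes were called in M3 + 2.5% FEx against MB10, in M3 + 10% FEx against MB10 and between the FEx media. The share of all genes called in that fit is not given here. The directions that turned belonged to changes that were not called. In M3 + 2.5% FEx against MB10, GstO1 stood at 0.0047 with RLE normalization and 0.006 with DESeq2, and with each library left out it ran from -0.0267 to 0.0301, GstD9 from -0.152 to 0.0511 and Gclm from -0.14 to 0.0629. In M3 + 10% FEx against MB10, GstT3 ran from -0.046 to 0.27. Between the FEx media the ranges were -0.58 to 0.41 for GstE1, -0.0291 to 0.0837 for GstE13, -0.0306 to 0.0681 for GstO2, -0.0564 to 0.0808 for Trxr1, -0.0992 to 0.0023 for Keap1, -0.0467 to 0.0142 for Mrp4 and -0.12 to 0.64 for Ggt-1. The causes of these shifts were not tested. Depth limits the 10 GST genes with 0 to 13 counts per library, for which no comparison was made, and GstE1, GstD2, Ggt-1 and Cyp6a8, which rest on few counts.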

Other observations

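Besides Prx6b and Prx6c, the counts of near-identical neighbors moved in parallel in 2 further gene pairs of the lists, and how the counting divided their reads is not known here. The pairs were chosen after their values were seen, and p-values are adjusted over all genes tested (edgeR). The log2 fold changes of Cyp12d1-p and Cyp12d1-d, cytochrome P450 genes known from insecticide studies, were 0.20 and 0.21 in M3 + 2.5% FEx (adjusted p = 0.108 and 0.0913) and -0.91 and -0.95 in M3 + 10% FEx (adjusted p = 1.13e-05 and 8.55e-06), both against MB10. The log2 fold changes of Gss1 and Gss2, which encode glutathione synthetase, were 0.30 and 0.24 in M3 + 2.5% FEx (adjusted p = 0.0915 and 0.166) and 0.45 and 0.41 in M3 + 10% FEx (adjusted p = 0.0146 and 0.0222), both against MB10.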
